A study of Mus musculus with 16 samples.

Results

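Monoubiquitinated histone H2A (H2AK119ub1) was compared between young and aged hematopoietic stem cells (HSCs), which reside in the bone marrow and sustain all blood lineages. The 2 lists compared hold the broad regions enriched for the mark in HSCs of 10-week-old (young) and of 20-month-old (aged) C57BL/6 mice, and every region on chromosomes 1 to 19 was taken. There were 19331 such regions, 2535 in the young list and 16796 in the aged list, of the 122027 regions and peaks in all 6 lists of the series. Regions of the 2 lists were called shared where they overlapped by at least 1 bp. A protein-coding gene was called marked when a region lay within 1 kb of a start site, which gave 3082 marked genes of 20720.

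The HSCs of both ages came from pooled bone marrow and were sorted as CD150+ CD48- CD34- Flt3- cells within the Lin- Sca-1+ c-kit+ fraction, so they represent that gate and not the whole marrow. Chromatin was digested with micrococcal nuclease, sonicated and immunoprecipitated with an antibody to H2AK119ub1. The labels give 2 H2AK119ub1 libraries and 2 input libraries per age, but the regions came as 1 pooled list per age whose names carry the number of a single library, so it is not certain that both libraries entered. Without a list per replicate no difference between the ages could be tested. Every comparison is therefore a description, the intervals in brackets are 95% Wilson intervals that cover counting error only, and a change with age cannot be told apart from a difference in enrichment or depth between the libraries. The depth is unknown from the lists.

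H2AK119ub1 is deposited by the RING1A and RING1B ligases of Polycomb repressive complex 1 and removed by the BAP1 deubiquitinase with its ASXL partners. Polycomb repressive complex 2 deposits H3K27me3, the other Polycomb mark, and each complex can be recruited by the mark of the other. Both marks are known to gather at CpG islands of genes for embryonic development, which are silent in blood cells, whereas H3K4me3 marks active and poised promoters. The sorted cells were checked by H3K4me3, which lay at the promoters of 10 of 15 HSC marker genes in the young list and of 9 in the aged list. Over all genes it lay at 35.4% and 24.4% of promoters. The young 10 included Mecom, Procr, Hlf and Meis1, but also Cd34, whose product the gate excludes. Kit, Ly6a (Sca-1) and Slamf1 (CD150), for which the cells were sorted, were not among the young 10, while Kit was among the aged 9. The 15 also held Cd48 and Flt3, likewise excluded by the gate and without H3K4me3 at either age. Of 17 markers of T, B, erythroid, myeloid and endothelial cells, 2 carried H3K4me3 in the young list (Epor among them) and 1 in the aged list (Kdr).

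The sequences below show where the listed regions lie relative to CpG dinucleotides, which are written in capitals. They come from genes with the widest promoter regions, 2 marked at both ages (Tbx15 and Hoxa11), 1 marked in aged HSCs only (Isl2) and 1 marked in young HSCs only (Fam222a). For each gene the 150 bases at the middle of the region (the aged one, or the young one for Fam222a) stand above the 150 bases before the nearest start site, on the strand of the gene (mm10, sequence of the RefSeq assembly GRCm38). Windows of untranslated sequence were avoided. The pairs lie at chr3:99256125-99256274 and chr3:99253610-99253759 (Tbx15, + strand, both in introns), at chr6:52246368-52246517 and chr6:52245811-52245960 (Hoxa11, - strand, both upstream of the gene), at chr9:55542127-55542276 and chr9:55540998-55541147 (Isl2, + strand, a coding exon and an intron of a longer transcript), and at chr5:114569069-114569218 and chr5:114567866-114568015 (Fam222a, + strand, intron and upstream).
Tbx15 region: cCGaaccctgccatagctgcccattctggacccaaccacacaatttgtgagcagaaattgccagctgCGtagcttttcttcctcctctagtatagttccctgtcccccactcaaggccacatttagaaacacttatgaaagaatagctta
Tbx15 start site: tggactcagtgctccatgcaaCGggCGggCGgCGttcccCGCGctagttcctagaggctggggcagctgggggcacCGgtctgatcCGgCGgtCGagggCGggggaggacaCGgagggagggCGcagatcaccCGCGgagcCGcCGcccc
Hoxa11 region: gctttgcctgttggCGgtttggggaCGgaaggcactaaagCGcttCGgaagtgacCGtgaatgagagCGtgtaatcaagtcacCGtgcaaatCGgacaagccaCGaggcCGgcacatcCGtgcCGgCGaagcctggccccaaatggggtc
Hoxa11 start site: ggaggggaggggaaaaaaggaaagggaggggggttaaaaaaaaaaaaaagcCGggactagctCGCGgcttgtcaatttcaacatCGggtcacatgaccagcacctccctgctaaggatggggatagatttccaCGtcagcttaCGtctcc
Isl2 region: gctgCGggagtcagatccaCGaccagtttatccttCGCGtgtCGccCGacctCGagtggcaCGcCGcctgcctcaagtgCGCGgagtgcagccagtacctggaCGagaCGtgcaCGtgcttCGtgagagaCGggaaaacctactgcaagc
Isl2 start site: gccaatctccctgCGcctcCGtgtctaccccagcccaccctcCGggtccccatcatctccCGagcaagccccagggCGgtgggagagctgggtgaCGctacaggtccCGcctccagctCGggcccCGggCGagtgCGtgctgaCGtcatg
Fam222a region: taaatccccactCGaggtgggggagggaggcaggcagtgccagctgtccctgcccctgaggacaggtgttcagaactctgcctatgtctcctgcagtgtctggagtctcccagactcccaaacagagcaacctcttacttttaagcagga
Fam222a start site: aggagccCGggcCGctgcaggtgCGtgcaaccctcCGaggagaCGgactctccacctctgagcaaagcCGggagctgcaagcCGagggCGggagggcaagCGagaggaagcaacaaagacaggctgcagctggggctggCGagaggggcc
The Tbx15 region held 2 CpG in these 150 bases and its start site 17, and the Fam222a region held 1 against 10. The widest aged regions could also run through CpG-dense sequence, with 13 CpG in the Hoxa11 window against 6 before its start site and 16 against 12 at Isl2. At Hoxa11 and Isl2 the start-site window also lies inside the aged region, so both windows of these pairs are marked. The start-site windows of Tbx15 and Fam222a lie outside the region shown.

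Most promoter regions resembled those of Tbx15 and Fam222a in holding fewer CpG than a start site of the gene. The counts below take the 5′-most start site, which need not be the nearest one used for the sequences above. For the 2668 genes marked in aged HSCs only, the median number of CpG was 7 in the central 300 bp of the region and 20 in the 300 bp at the 5′-most start site (250 bp before to 50 bp after it), and the start site held more in 78.0% of the genes. For the 325 genes marked at both ages the medians were 6 in the young and 7 in the aged region against 17 at the start site. For the 89 genes marked in young HSCs only they were 4 and 17. The observed to expected CpG ratio had a median of 0.323 (0.297 to 0.353 by order statistics) over the 457 young regions at promoters and of 0.402 (0.392 to 0.413) over the 3864 aged ones, against 0.568 in the windows at all start sites. Over all regions, most of which lie away from promoters, it was 0.240 and 0.246. The GC box GGGCGG, searched on both strands, occurred in the central 300 bp of 18.6% of young and 21.5% of aged regions at promoters and in 45.6% of all promoter windows of that length. CAGCTG occurred in 16.4% and 17.3% against 15.4%. The motif of the factor family that includes Gata2, searched as GATAAG, occurred in 7.66% and 7.43% against 6.75%.

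The aged list was 6.63 times as long as the young list and covered 7.19 Mb against 0.941 Mb, which is 0.292% and 0.0382% of the assembled length. The additional length included wide regions, since 879 aged regions exceeded 1 kb against 36 young regions, and 142 against 0 exceeded 2 kb. The median width was nevertheless 320 bp for young and 327 bp for aged regions, and the median fold enrichment over background was 3.24 and 3.23. No young region exceeded a fold enrichment of 4.59 and no aged region one of 5.25, so the signal of single regions was modest at both ages.

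Of the young regions, 1311 (51.7%, 49.8 to 53.7) overlapped an aged region, and 1247 (7.42%, 7.04 to 7.83) of the aged regions overlapped a young region. The shared young regions had a median width of 371 bp and the aged regions that they touched 761 bp, and the aged region was the wider of the pair in 1050 cases (80.1%) and the young region in 254. Overlap favors wide regions, and it kept a smaller part of the aged list than of the young list, and the part of this choice in the difference was not tested. The aged fold enrichment was the higher of the pair in 934 cases (71.2%). Young regions without an overlap mostly lay close to the aged mark, with 514 of 1224 (42.0%, 39.3 to 44.8) within 1 kb and 859 (70.2%, 67.6 to 72.7) within 5 kb of an aged region, and a median gap of 1526 bp. For aged-only regions the median gap to a young region was 116965 bp, and 7.90% (7.49 to 8.34) lay within 1 kb. The young list is the shorter one, so the gaps of the 2 kinds of region are not measured on the same scale.

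Promoters of 414 genes were marked in young HSCs (2.00% of 20720) and of 2993 in aged HSCs (14.4%). The genes fell into 325 marked at both ages (1.57%), 2668 marked in aged HSCs only (12.9%) and 89 marked in young HSCs only (0.430%), so that 78.5% (74.3 to 82.2) of the young genes were marked again in aged HSCs. Neighboring genes can share a region, which was the case for 22 of the young and 234 of the aged genes. At the limit of 1 kb, the region of Pdgfa lay 1000 bp and that of Rgma 1001 bp from a start site in the young list, and in the aged list those of Cdca7 and Cnih2 lay 999 bp and those of Med13l and Selenoo 1001 bp away. More than 900 and up to 1000 bp away lay the regions of 43 young and 181 aged genes, and beyond that, up to 1100 bp away, those of 32 and 145. Of the 89 genes called young only, 25 (28.1%) had an aged region within 2 kb of a start site and 45 (50.6%) within 5 kb, whereas 344 of the 2668 aged-only genes (12.9%) had a young region within 5 kb.

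The genes with the widest promoter regions were largely developmental regulators. Multiple promoter regions were listed for 41 young and 783 aged genes, and the width given for a gene is that of its widest one. Lhx9, a LIM homeobox gene of gonad, limb and brain development, carried the widest one, with 710 bp in young and 5276 bp in aged HSCs at chr1:138839615-138844890, within the gene. Among the other genes marked at both ages, the young and aged regions measured 443 and 3878 bp at Tbx15, a T-box gene of skeletal development, 515 and 3849 bp at Hoxa11, and 829 and 3376 bp at Tbx4, a regulator of hindlimb and lung development. They measured 388 and 3131 bp at Pdx1, the pancreatic homeobox gene, and 665 and 3060 bp at Evx2, next to the Hoxd cluster. These genes were chosen by their aged width, and no young region was wider than 1863 bp. Duox2, which encodes an NADPH oxidase of thyroid and mucosa, was the member of these 8 that is no transcription factor, with 375 and 3636 bp. The widest young and widest aged region of a gene need not overlap. Tbx15 had 2 promoter regions in each list, and the widest young one ended at position 99253277 while the widest aged one began at 99254261. All 8 genes carried H3K27me3 at both ages.

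Of the 8 widest genes marked in aged HSCs only, 6 encode developmental transcription factors, with regions of 3535 bp at Isl2 (chr9:55540435-55543969), 3287 bp at Vax2, 3085 bp at Ebf2, 2972 bp at Dlx6 and 2651 bp at Insm1 among them, genes of motor neurons, eye, fat and brain, craniofacial and neuroendocrine development. Wnt1, a WNT ligand of the midbrain, had 2707 bp. Grrp1, with 2818 bp, was the member without H3K27me3 at either age. The 8 young-only genes were ranked by young width, so their widths do not compare with the aged ones above. Their regions were wide for the young list, whose median was 320 bp. They ran from 802 bp at Atp7b, a copper transporter (chr8:22058564-22059365), and 666 bp at Fam222a to 480 bp at Nacc2. Between these lay Greb1l (618 bp), Asb8 (594 bp), Nxph3 (555 bp), Lrba (553 bp) and Cacna2d2 (530 bp). The region at Lrba lies in that gene and also marks Mab21l2. H3K27me3 lay at 7 of these 8 in the young list but at 2 in the list of aged HSCs. Over all genes its share was also higher in the young list (15.75% against 8.20%), which holds 50640 H3K27me3 regions against 15926 in the aged list.

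By function, developmental transcription factors led both lists. Of 296 such genes, 79 (26.7%, 22.0 to 32.0) were marked in young and 207 (69.9%, 64.5 to 74.9) in aged HSCs, against 2.00% and 14.4% of all genes. Of the 79 young genes 76 were marked again. Because the rest of the aged list was so much longer, these factors made up 19.1% of the young and 6.92% of the aged marked genes. Developmental signaling genes were marked at 11 of 168 (6.55%, 3.70 to 11.3) in young and 82 (48.8%, 41.4 to 56.3) in aged HSCs. Neuronal and channel genes stood at 14 and 77 of 262 (5.34% and 29.4%). Besides receptor and channel genes this group holds 57 clustered protocadherin genes, of which 0 and 1 were marked. Extracellular matrix genes stood at 2 and 22 of 66 (3.03% and 33.3%). Blood genes were near the share of all genes, with 7 and 54 of 304 (2.30%, 1.12 to 4.68, and 17.8%, 13.9 to 22.5). Housekeeping genes were marked at 0 and 18 of 353 (5.10%, 3.25 to 7.92, in aged HSCs), where a count of 0 allows a young share of up to 0.850%.

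**Figure D1:**
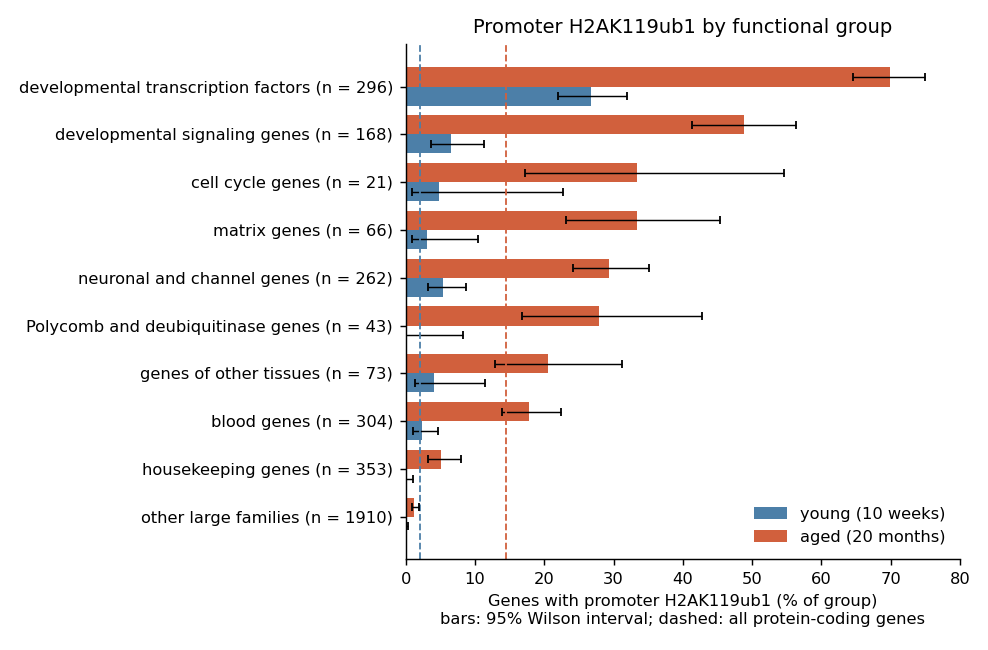
Share of the genes of each functional group with H2AK119ub1 within 1 kb of a start site, in percent, in young (blue) and aged (red) HSCs. Error bars are 95% Wilson intervals (counting error only), dashed lines are the shares of all 20720 genes (2.00% and 14.4%), and n is the number of genes. Developmental transcription factors reached 69.9% in aged HSCs, and housekeeping genes 5.10%.

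Among these families, PAX, LIM homeobox and Hox cluster genes had the highest young shares, at 44.4%, 41.7% and 41.0%. All 12 LIM homeobox genes were marked in aged HSCs and 5 in young HSCs (Lhx9, Lhx1, Isl1, Lhx3 and Lhx5). Of 94 other homeobox genes, 33 were marked in young and 77 in aged HSCs. Those marked at both ages included Nkx2-1 (759 and 944 bp), the thyroid and lung factor, Otx2 (953 and 1821 bp), which patterns the forebrain, and Prox1 (300 and 2639 bp), required in lymphatic endothelium and liver. Nkx6-2 was among those marked in young HSCs only. PAX genes were marked at 4 and 8 of 9, T-box genes at 6 and 11 of 16, and SOX genes at 3 (Sox1, Sox2 and Sox17) and 11 of 18. Forkhead genes were marked at 2 of 41 in young (Foxd4 among them) and 21 in aged HSCs, with Foxb2 (2451 bp), Foxc1 (2222 bp) and Foxa2 (1735 bp) among those marked in aged HSCs only. The GATA genes marked were those of heart and gut, Gata6 at both ages and Gata4 and Gata5 in aged HSCs only. Lineage bHLH genes were marked at 7 and 22 of 38, with Neurog2, Neurod1, Tcf21, Neurod2 and Hand1 among those at both ages, Atoh7 in young HSCs only and Olig2 (2527 bp) the widest of the aged-only ones.

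Of the 84 signaling genes marked at either age 73 (86.9%) were marked in aged HSCs only, which is near the 86.6% of all 3082 marked genes. Of 19 WNT ligands, 15 were marked in aged HSCs, among them Wnt1, Wnt11 (2010 bp) and Wnt3 (1291 bp), and 2 in young HSCs (Wnt16 at both ages, and Wnt10a in young only). The Frizzled receptors and WNT antagonists stood at 0 and 8 of 20, with the antagonist Dkk1 (898 bp) the widest. Hedgehog pathway genes stood at 0 and 6 of 10, including the ligands Ihh (1575 bp) and Dhh (1358 bp). FGF ligands stood at 1 (Fgf8) and 11 of 20, Notch pathway genes at 3 (Dll4, Hes3 and Rbpjl) and 12 of 20, and BMP, GDF and activin ligands and antagonists at 3 and 13 of 38, with Gdf7 (431 and 2246 bp) and Chrdl2 (245 and 1326 bp) at both ages and the BMP antagonist Nog (1337 bp) in aged HSCs only. Potassium channel genes stood at 5 and 36 of 92, where Kcnn1 had 257 and 2514 bp, and collagen genes at 2 and 16 of 42.

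Large families of genes silent in blood were rarely listed with the mark in aged HSCs. The mark lay at 0 and 2 of 1086 olfactory receptor genes, at 0 and 0 of 326 vomeronasal receptor genes, at 0 and 0 of 64 defensin genes and at 0 and 1 of 57 clustered protocadherin genes. In the young list, a count of 0 allows a share of up to 0.276% of olfactory and 0.920% of vomeronasal receptor genes. Both limits lie below the 2.00% of all genes. The defensin genes (up to 4.69%) and clustered protocadherin genes (up to 5.26%) are too few to be told from all genes in the young list. Zinc finger genes named Zfp, many of which encode sequence-specific repressors, stood at 2 and 20 of 385 (0.519% and 5.19%). These were not shown to be silent, since 175 of the 385 carried H3K4me3 in the young list. None of the 1086 olfactory receptor genes and 3 of the 57 clustered protocadherin genes had a CpG-rich promoter (at least 50% GC and an observed to expected CpG ratio of at least 0.6 within 500 bp of the start site), whereas 194 of the 385 Zfp genes had one. Among housekeeping genes, proteasome genes were unmarked at both ages (0 of 38), and 5 of 81 ribosomal protein genes, 2 of 92 respiratory chain genes and 7 of 67 replication-dependent histone genes were marked in aged HSCs.

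Genes of the Polycomb system itself and of HSC regulation were counted next, where 2.00% and 14.4% of all genes again give the scale for young and aged HSCs. Of 23 genes of Polycomb repressive complex 1, 0 were marked in young and 9 in aged HSCs, among them the chromodomain genes Cbx8 (1888 bp) and Cbx2 (534 bp), the subunits Pcgf1 (468 bp), Pcgf2 (318 bp) and Pcgf6 (291 bp), Rybp (602 bp), Kdm2b (353 bp), which binds CpG islands, and Auts2 (305 bp). Of 12 complex 2 genes the accessory genes Phf19 (507 bp) and Epop (301 bp) were marked in aged HSCs, and of 8 H2A deubiquitinase genes Asxl3 (422 bp). Cdkn2a, which encodes p16 and p19 and is a classical Polycomb target, was marked at both ages. It had 1 young region (475 bp) and 3 aged regions, the widest of 386 bp. The other CDK inhibitors marked were aged only, namely Cdkn2b (545 bp), Cdkn3 (281 bp), Cdkn2c (232 bp) and Cdkn1b (200 bp), so 1 and 5 of 8 were marked.

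HSC transcription factor genes were marked at 1 and 7 of 24. Erg was marked at both ages (222 and 1466 bp), and Gfi1 (846 bp), Mycn (547 bp), Myc (474 bp), Runx1 (381 bp), Fli1 (372 bp) and Hhex (366 bp) in aged HSCs only. HSC surface marker genes stood at 0 and 2 of 16 (Thy1 and Cd9), and genes known to rise in aged HSCs at 0 and 3 of 22 (Mt1 with 647 bp, Itgb3 with 302 bp and Jam2 with 200 bp), which is near the 14.4% of all genes. The lineage factors Irf8 (338 and 277 bp) and Klf1 (256 and 222 bp), of the monocytic and erythroid lineages, were marked at both ages, and Cebpa (372 bp), Pax5 (622 bp), Ebf1 (264 bp), Tcf7 (458 bp) and Bcl11b (507 bp) in aged HSCs only. Most genes of these lineages were unmarked, with aged counts of 2 of 22 granulocyte and monocyte genes (9.09%), 2 of 12 erythroid genes (16.7%), 2 of 13 B cell genes (15.4%) and 3 of 21 T and NK cell genes (14.3%). Chemokine and chemokine receptor genes stood at 3 and 10 of 59, with Cxcl12, Cx3cl1 and Ccr9 marked at both ages. Interleukin and interleukin receptor genes stood at 0 and 12 of 77, and Il11 had the widest aged-only region (2027 bp).

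The classes differed in the marks that the choice of genes did not use. H3K27me3 was present in the young list at 94.2% (91.1 to 96.2) of the genes with H2AK119ub1 at both ages, at 51.5% (49.6 to 53.4) of the aged-only genes, at 57.3% (46.9 to 67.1) of the young-only genes and at 8.69% (8.29 to 9.12) of the unmarked genes. In the aged list, which holds 15926 H3K27me3 regions against 50640 in the young list on these chromosomes, the shares were 74.5%, 30.9%, 28.1% and 3.44%. H3K4me3 was present in the young list at 20.0% (16.0 to 24.7), 36.7% (34.9 to 38.6), 25.8% (17.9 to 35.8) and 35.5% (34.8 to 36.2) in the same order. Of the aged-only genes, 685 (25.7%) carried neither mark in young HSCs, against 51.95% of all genes, and 371 (13.9%) carried both, against 3.055% of all genes.

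The share of genes with H2AK119ub1 differed with H3K27me3 in young HSCs and with CpG content. Of 1657 CpG-rich promoters with young H3K27me3, 13.5% (11.9 to 15.2) were marked with H2AK119ub1 in young and 63.9% (61.6 to 66.2) in aged HSCs. Of 1607 other promoters with young H3K27me3 the shares were 8.34% (7.08 to 9.79) and 38.6% (36.3 to 41.0). Without young H3K27me3 they were 0.380% (0.268 to 0.539) and 10.5% (9.88 to 11.2) of 8156 CpG-rich promoters and 0.280% (0.191 to 0.409) and 4.88% (4.46 to 5.34) of 9300 others. These features did not divide marked from unmarked genes, since 859 CpG-rich and 454 other promoters without young H3K27me3 were marked in aged HSCs.

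**Figure D2:**
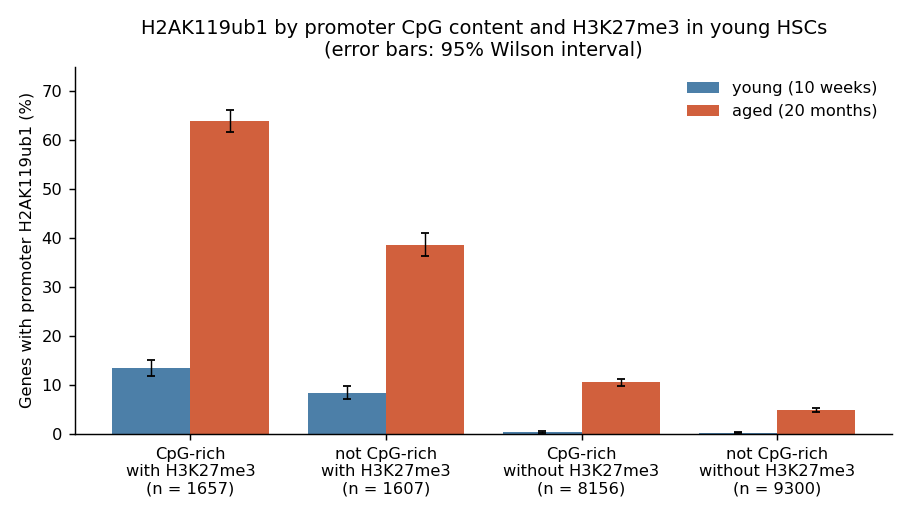
Share of genes with promoter H2AK119ub1, in percent, by CpG content of the promoter and by H3K27me3 in young HSCs, for the young (blue) and aged (red) list. Error bars are 95% Wilson intervals and n is the number of genes. CpG-rich promoters with young H3K27me3 reached 63.9% in aged HSCs, and promoters with neither feature 4.88%.

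H2AK119ub1 was listed on the flanks of start sites. Over all 20720 genes, without a choice by the mark, the young list covered 0.438% of the genes at 850 bp before the 5′-most start site, 0.130% at 50 bp after it and 0.516% at 1150 bp after it. The aged list covered 2.77% at 650 bp before, 1.68% at 50 bp after and 4.45% at 850 bp after the start site. The downstream flank was thus the higher of the pair in aged HSCs, while the flanks were closer to each other in young HSCs. Of the regions at promoters, the midpoint lay downstream of the nearest start site in 47.9% (43.4 to 52.5) of young regions and 59.0% (57.5 to 60.6) of aged regions, and in 48.9% (43.5 to 54.4) of the shared and 59.9% (58.3 to 61.5) of the aged-only regions of the aged list. A start site itself lay within 39 of the 457 young (8.53%) and 520 of the 3864 aged regions at promoters (13.5%).

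**Figure D3:**
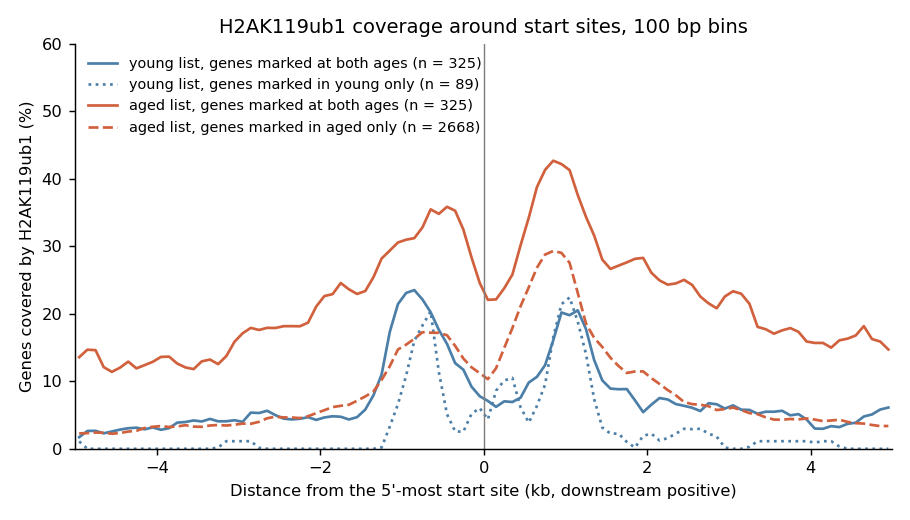
Share of genes covered by H2AK119ub1, in percent, in 100 bp bins around the 5′-most start site (distance in kb, downstream positive), for genes marked at both ages (n = 325), in young HSCs only (n = 89) and in aged HSCs only (n = 2668). Genes were chosen for a region within 1 kb, which sets the fall beyond that distance. Every line is lower at the start site than at its flanking peaks, and the aged list at genes of both ages peaks at 42.7% at 850 bp downstream.

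The share of regions at promoters was 18.0% (16.6 to 19.6) for the young list and 23.0% (22.4 to 23.7) for the aged list, though the 1 kb flanks of start sites make up 2.07% of the length. Introns of protein-coding genes held 31.7% and 32.5% (36.4% of the length), exons outside promoters 7.53% and 7.97% (2.44%), genes of other types 10.7% and 8.01% (6.84%) and intergenic sequence 32.0% and 28.5% (52.3%). Regions away from promoters had a median distance to a start site of 6144 bp in young and 11154 bp in aged HSCs. No distance for the genome as a whole was set beside these. Of all regions, those at promoters included, 236 young (9.31%) and 2620 aged ones (15.6%) lay more than 50 kb from any start site. Among the widest aged-only regions away from promoters were those near Nr2f2 (3556 bp), Tbx15 (3421 bp, in an intron), Pax6 (3044 bp, in an intron) and Foxd1 (2967 bp).

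Regions of the aged list often stood in rows. Joined where 1 kb or less apart, 33.9% of the aged and 21.2% of the young regions belonged to a row. Rows longer than 5 kb numbered 206 in the aged and 2 in the young list. A longer list of wider regions holds more neighbors within 1 kb, and the part of list length in these numbers was not tested. The widest aged row spanned 24027 bp with 20 regions at Nkx2-1 (chr12:56517917-56541943), where the young list had 8 regions. It was followed by 19094 bp at Onecut1, a liver and pancreas factor (15 aged and 5 young regions), 18772 bp at Dlx1 and Dlx2 (12 and 7), 15938 bp at Tfap2a (13 and 6) and 15869 bp at Sim2 (12 and 6). The widest young rows spanned 7288 bp at Tbx4 (7 young and 4 aged regions) and 6022 bp at Hmx2 and Hmx3 (6 and 5).

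The Hox clusters, which set positional identity along the body axis, contained the densest windows of both lists. The 1 Mb window with the most regions was the same at both ages (chromosome 15, 102000001 to 103000000, with much of the Hoxc cluster), with 47 young and 93 aged regions. The windows with the Hoxd cluster (38 and 67) and the Hoxb cluster (31 and 82) were also among the first 5 at both ages. H2AK119ub1 covered 18.0% of the Hoxc cluster in young and 47.9% in aged HSCs, 13.4% and 40.3% of Hoxd, 4.08% and 17.1% of Hoxa, and 3.36% and 13.5% of Hoxb. The marked genes numbered 4 in young and 9 in aged HSCs of 9 in Hoxc, 7 and 9 of 9 in Hoxd, 3 and 5 of 11 in Hoxa, and 2 and 6 of 10 in Hoxb. The coverage of H3K27me3 was instead higher in the young list, with 96.3% and 48.7% of Hoxc, 91.9% and 53.1% of Hoxd, 24.5% and 11.5% of Hoxa, and 37.2% and 9.51% of Hoxb in young and aged HSCs. In the Hoxa cluster the marked genes were Hoxa10, Hoxa11 and Hoxa13 in young HSCs, and these with Hoxa4 among others in aged HSCs. Hoxa9, active in HSCs, was marked at neither age.

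**Figure D4:**
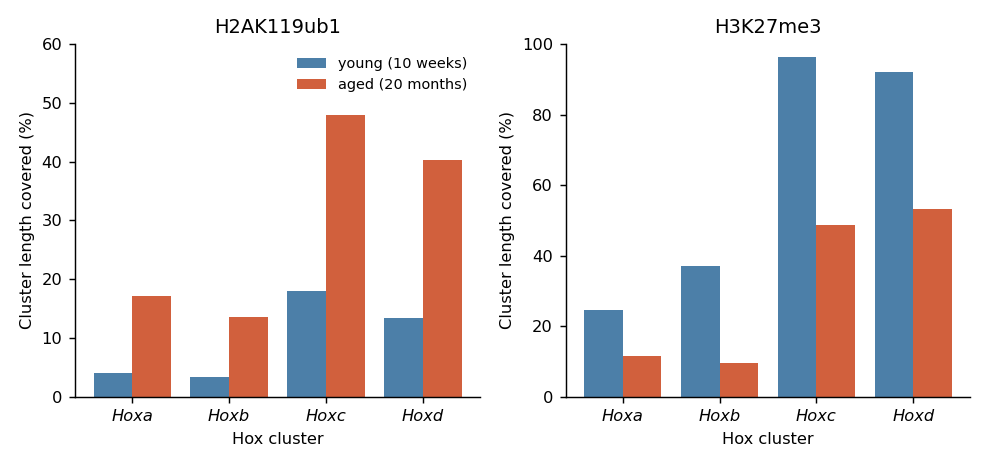
Share of the length of each Hox cluster covered by H2AK119ub1 (left panel) and by H3K27me3 (right panel) in the young (blue) and aged (red) list. With 1 list per age there are no error bars. H2AK119ub1 coverage was higher and H3K27me3 coverage lower in aged HSCs in all 4 clusters.

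The ratio of aged to young regions lay between 5.16 (chromosome 5) and 9.78 (chromosome 16) on the 19 chromosomes, so the aged list was longer on each of them. Chromosome 11 was densest at both ages, with 1.84 young and 12.3 aged regions per Mb. As a description over these 19 chromosomes, which share their libraries, the density followed the number of CpG-rich promoters per Mb with Pearson's r of 0.78 (Spearman's rho 0.73) in young and 0.91 (0.82) in aged HSCs. For all protein-coding genes per Mb these values were 0.65 (0.68) and 0.77 (0.77).

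**Figure D5:**
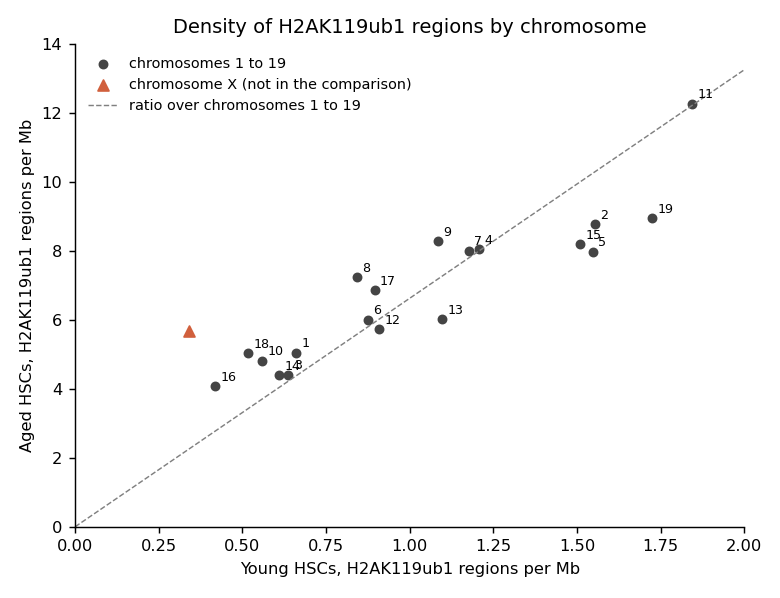
H2AK119ub1 regions per Mb in young (x axis) and aged (y axis) HSCs, 1 point per chromosome. The dashed line is the ratio over chromosomes 1 to 19 (6.63), and the triangle is chromosome X, which is outside the comparison. Chromosome 11 is highest at both ages, and every chromosome is denser in aged HSCs.

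Genes that the study lists as changed by RNA-seq in aged HSCs were then set against the mark, using their direction only. Of 273 matched genes listed as higher, 12 (4.40%, 2.53 to 7.53) were marked in young and 56 (20.5%, 16.2 to 25.7) in aged HSCs. Of 120 listed as lower, 2 (1.67%, 0.458 to 5.87) and 25 (20.8%, 14.5 to 28.9) were marked. The aged shares of the 2 directions were thus alike and somewhat above the 14.4% of all genes. In the young list the interval of the genes listed as higher lay above the 2.00% of all genes, while that of the genes listed as lower included it. Marked genes listed as higher were led by Ltbp4 (550 and 1050 bp), which binds latent TGF-beta, Rbpms2 (310 and 857 bp), Kcnip3 (838 bp, aged only), Fhdc1 (738 bp) and Pcdh7 (660 bp), and those listed as lower by Igf2bp2 (1408 bp, aged only), an RNA-binding protein of fetal HSCs, Map4k2 (846 bp), Cx3cl1 (581 and 797 bp), Ptpn7 (754 bp) and Amigo2 (728 bp). Of the open chromatin regions that the study lists as gained in aged HSCs, 0 of 426 overlapped a young and 12 an aged H2AK119ub1 region, all of them aged-only regions of 224 to 627 bp. No list of all accessible regions was set beside them, so these counts have no background. The nearest genes included Nrxn3, Abat, Igsf9b, Zfhx4 and Nlgn1.

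The lengths of the lists set much of these numbers. Aged lists of as many regions as the young list were therefore used, although they hold the widest or highest aged regions against all young ones and still covered 2.78 and 1.52 times the young length. With the 2535 widest aged regions, 761 genes (3.67%) were marked, among them 136 of the 296 developmental transcription factor genes (45.9%) and 0 of the 353 housekeeping genes. With the 2535 regions of highest −log10 q-value it was 635 genes (3.06%), 100 developmental transcription factor genes (33.8%) and 0 housekeeping genes. The young list had 414, 79 (26.7%) and 0. Signaling genes stood at 26 (15.5%) and 18 (10.7%) of 168 in the reduced lists against 11 in the young list, and blood genes at 12 and 16 of 304 against 7.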

How the data were processed

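ChIP-seq for H2AK119ub1, H3K27me3 and H3K4me3 was performed by the authors on HSCs sorted from pooled bone marrow of young and aged female C57BL/6 mice. Per the labels and the study's methods, single reads were aligned to mm10 with Bowtie2, and the submitters' processing notes name MACS2 2.2.6. The deposited lists give for each region the fold enrichment, a linear ratio to the caller's background, and the −log10 of the q-value, both averaged over a broad region. Duplicated and multiply aligned reads, the threshold and the depth of the libraries all affect which regions the authors' caller lists.

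From these lists, positions on chromosomes 1 to 19 were used, leaving out 58 young and 972 aged regions on chromosome X and 3 aged regions on a scaffold. Overlaps were computed with Python 3.11.15, pandas 2.3.3 and pysam 0.24.0 and checked with bedtools 2.31.1 and on simulated regions. Genes and start sites were those of protein-coding transcripts in the basic GENCODE M21 annotation (39540 start sites). CpG content was read from the GRCm38 sequence, the same assembly as mm10. Genes were named by a rule, namely the 8 widest promoter regions of each class and the members of 57 gene lists marked at both ages or in young HSCs, with up to 6 aged-only members by width, or all of them for Polycomb, CDK inhibitor and HSC lists. The members and lists were chosen with earlier results of these data known. The lists of genes changed by RNA-seq and of open regions came from the study's supplements and were used for names, direction and position only. Some genes that the rule names are not reported here. The threshold, overlap, promoter width, joining, list length, chromosome X and the annotation were varied.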

Additional observations from a re-analysis of the deposited data

Results flagged for a closer look

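Chromosome X lay outside the comparison and held 58 young and 972 aged H2AK119ub1 regions, which gives a ratio of 16.8, whereas the ratio lay between 5.16 and 9.78 on chromosomes 1 to 19. It was drawn to attention because these regions are signal in data that the comparison did not use. The density on X was 0.339 regions per Mb in young and 5.68 in aged HSCs, against 1.03 and 6.82 over chromosomes 1 to 19. Of 948 protein-coding genes on X, 3 (0.316%) were marked in young and 64 (6.75%) in aged HSCs. The young regions on X overlapped H3K27me3 of the young list at 24 (41.4%), against 74.95% on chromosomes 1 to 19. The aged regions on X overlapped H3K27me3 of the aged list at 138 (14.2%), against 26.5% on chromosomes 1 to 19. The difference between X and the other chromosomes was not tested.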

How the results depend on the processing

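The aged list marked more genes than the young list under all alternatives tried, those with equally many regions included, and 37 of 84 alternative values of 14 results stayed within 1.5 times the count or ratio, or within the 95% interval of the share or median, reported above. The ratios of region number (5.89 to 6.85) and covered length (7.83 to 9.60) did so under each alternative that left the lists at their own lengths. With regions of −log10 q of at least 2, the shared parts were 31.6% of young and 4.73% of aged regions, the genes 147 young, 1254 aged, 75 at both ages and 1179 aged only, the aged promoter share 27.4%, young developmental transcription factor genes 28 and the GC of aged-only regions 51.5%. With the widest aged regions, as many as young ones, the shares were 30.8% and 27.1%, the genes 761 aged, 175 at both ages, 586 aged only and 239 young only, the aged promoter share 35.1%, aged developmental transcription factor genes 136 and the GC 51.9%. With the aged regions of highest −log10 q they were 18.1% and 15.9%, 635, 129, 506 and 285 genes, 27.5%, 100 and 51.8%. An overlap of 50% of the shorter region gave 39.3% and 5.59%. Promoters of 500 bp gave 196 young, 1916 aged, 145 shared, 1771 aged-only and 51 young-only genes, 8.21% and 13.2% of regions at promoters, and 44 young developmental transcription factor genes. Promoters of 2 kb gave 675 young and 565 shared genes, 31.8% and 34.3% of regions at promoters, and 126 such genes. Joining regions within 1 kb gave 7.02% of aged regions shared and 24.5% at promoters, and adding chromosome X gave 22.1% at promoters. The comprehensive annotation, chosen after the data were seen, gave 20.3% and 24.9% at promoters. The number of young-only genes thus depended most on the length of the aged list. No paired analysis was possible because each age had 1 pooled list. Without counts or depths, a place missing from the shorter young list cannot be called free of the mark.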

Other observations

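Families of protein-coding genes that share a symbol stem, formed after the data were seen, were also counted (146 families of at least 15 genes). Outside the families described above, the highest aged shares, to be read against the 14.4% of all genes, were those of the stem St (10 of 27, 37.0%), which sialyltransferases share with unrelated genes, of Cdh, the cadherins (8 of 23, 34.8%), and of Rgs, regulators of G protein signaling (8 of 23, 34.8%, of which 3 were also marked in young HSCs). Car, the carbonic anhydrases, followed with 5 of 15 (33.3%), Nr, nuclear receptors, with 8 of 25 (32.0%) and Mmp, matrix metalloproteinases, with 7 of 22 (31.8%). None of 35 Vps genes of vesicle transport, 26 Serpinb genes or 34 Scgb genes was marked at either age. No test was made of these counts.

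A small number of regions stood out by a low fold enrichment. Of the 6 young and 7 aged regions below 2-fold, 4 young regions and 1 aged region lay on chromosome 17 between 39843626 and 39848822, over the annotated rRNA gene CT010467.1 and the noncoding gene Gm26917, where sequence is present in many copies. An aged region of 3544 bp there had a fold of 2.05 and a −log10 q-value of 4.87. At Gm10800 on chromosome 2 a young region had a fold of 1.37 and an aged region 1.42.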
